A study of Mus musculus with 6 samples.

Results

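The CXC chemokine ligands are small secreted proteins that share a pattern of cysteines and steer leukocytes through receptors on the cell surface. The 10 genes described here, *Cxcl1*, *Cxcl2*, *Cxcl3*, *Cxcl9*, *Cxcl10*, *Cxcl11*, *Cxcl13*, *Cxcl14*, *Cxcl16*, and *Pf4*, are a named list from the family, not all of it, out of 54232 genes in the RNA-seq of monocytes from the inflamed CNS. Expression was compared between 3 WT and 3 *Ifnar1-/-* libraries. The monocytes came from mixed bone marrow chimeras: GFP+ mice were irradiated, given marrow of both genotypes, immunized 6 to 7 weeks later to induce EAE, a mouse model of multiple sclerosis, and all treated with 30000 IU of rIFN-β per day. WT donors were CD45.1 and *Ifnar1-/-* donors, which lack a chain of the receptor for all type I IFNs, were CD45.2, so genotype and donor marker cannot be told apart. At the peak of disease, GFP- CD45+ CD11b+ Ly6Chi Ly6G- cells were sorted from the CNS. No library came from untreated mice, so the comparison is between cells with and without the receptor under rIFN-β.

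CXCL9, CXCL10, and CXCL11 bind CXCR3, a receptor of activated T cells and NK cells, and their genes are known targets of interferons. CXCL1, CXCL2, and CXCL3 carry the ELR motif, bind CXCR2, and draw neutrophils. CXCL16 is made as a membrane protein that can be cleaved from the cell and binds CXCR6, CXCL13 draws B cells through CXCR5, and *Pf4* encodes platelet factor 4, which platelets store.

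Sequencing depth was 7321380, 4531782, and 4946747 expected counts for WT replicates 1, 2, and 3, and for *Ifnar1-/-* replicates it was 6916101, 5811323, and 5442568. An expected count is the number of reads that the RSEM program assigned to a gene. The detection floor was set at 3 counts, or 0.410 to 0.662 CPM (counts scaled to library size). This floor holds for counting error alone, whereas the intervals of log2 fold changes also reflect the spread between libraries. Of 11254 genes that passed the filter on low counts, 8 were CXC ligands, and *Cxcl13* and *Pf4* did not pass. Differential expression meant an adjusted p of at most 0.05 in the edgeR quasi-likelihood test and a fold change of at least 1.5, and log2 fold changes are WT over *Ifnar1-/-*. The labels do not say that libraries of a group came from separate mice, so p-values measure the spread between these libraries. There were as many recipient mice as libraries of a genotype, so a mouse may have given a library of each genotype, but no source used here says that libraries of the same number came from the same mouse. *Ifnar1* itself was counted at 153, 126, and 111 normalized CPM in WT and 110, 101, and 109 in *Ifnar1-/-* libraries (log2 fold change 0.28, SE 0.15, adjusted p = 0.36 by edgeR quasi-likelihood), so the count over the whole gene does not check the genotype. For the sorted cell type, *Ly6c2* and *Ccr2*, markers of inflammatory monocytes, were abundant in all 6 libraries, and the neutrophil gene *Ly6g*, whose protein the sort excluded, had at most 4 counts. Other neutrophil genes were present, with *S100a9* at 300 to 3989 counts and *Ngp* at 524 to 3431.

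The monocytes of both genotypes expressed a few of these ligands strongly and the rest at lower levels. On the TPM scale, which accounts for gene length, *Cxcl2*, *Cxcl16*, *Cxcl9*, and *Cxcl10* together made up 94.4% to 97.8% of the summed level of the 10 genes in each library. That sum was 536, 576, and 705 TPM in WT and 555, 475, and 602 TPM in *Ifnar1-/-* libraries, and the groups overlapped. *Cxcl2* was the most abundant ligand in libraries 1 and 3 of both genotypes, and *Cxcl16* in library 2 of both. Levels of *Cxcl2* ran from 103 to 307 TPM and those of *Cxcl16* from 116 to 198 TPM, so the order of these neighbors was not fixed beyond their spread. In WT library 1 the 7SL RNA gene *Rn7s2* took 27.8% of all TPM, against 7.36% to 11.2% in the others, which lowers the TPM of other genes there but not their order. *Cxcl1*, *Cxcl3*, *Cxcl11*, and *Cxcl14* lay below these 4 in every library, and *Cxcl13* had 0 counts in all 6 libraries.

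**Figure D1:**
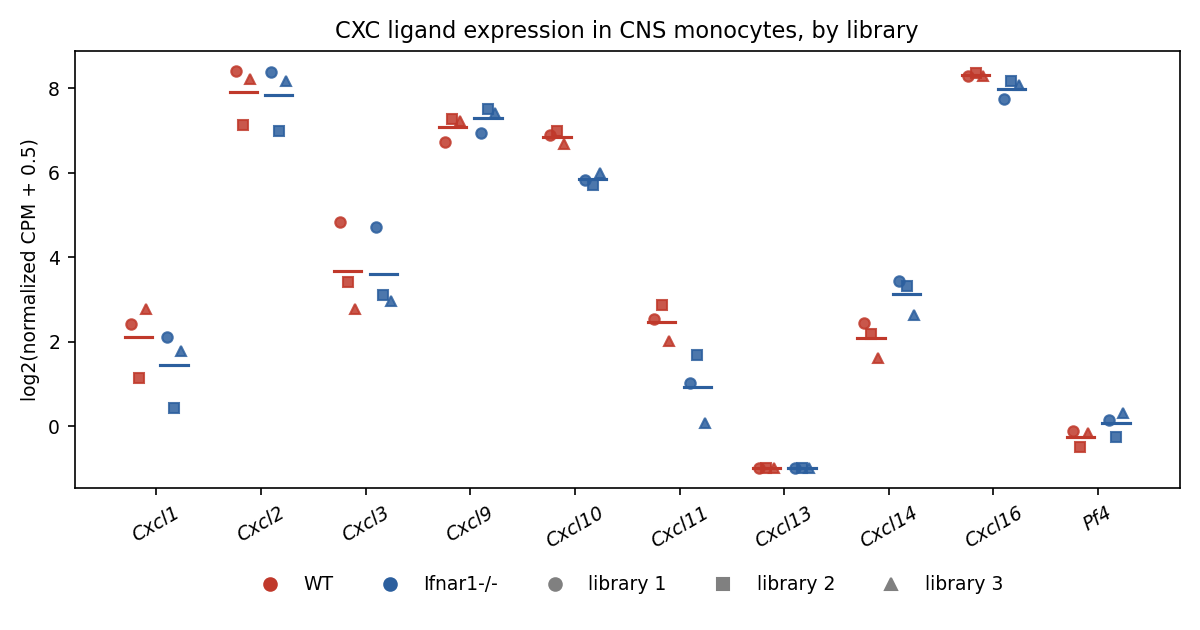
Level of each CXC ligand in the 6 libraries, as log2 of normalized CPM plus 0.5, with WT in red, *Ifnar1-/-* in blue, marker shapes for library number, and lines for group means. *Cxcl10* separates by genotype with 102.5 CPM as the lowest WT value and 63.1 CPM as the highest *Ifnar1-/-* value, whereas *Cxcl2* and *Cxcl9* overlap.

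Of the 10 ligands, 1 was higher in WT monocytes by the test, *Cxcl10*, and 0 were lower. Across all tested genes, 188 (1.67%) were higher and 52 (0.462%) lower in WT, or 2.13% in both directions. The lower count rested on single libraries, with 7 genes without WT library 3, 7 without *Ifnar1-/-* library 1, and 10 without *Ifnar1-/-* library 3, where 141, 112, and 110 genes were higher. In the alternative fits the share of all tested genes called was 2.05% with RLE size factors, 4.1% with no filter on low counts, 2.24% with at least 10 counts required in every library, 2.04% without mitochondrial and ribosomal RNA genes, 3.83% with DESeq2, 1.96% with limma-voom, and 1.11% with limma-trend on TPM. It was 1.95% with a replicate block, 2.61% with the block in DESeq2, 1.95% with GC and length offsets, and 2.72% with these offsets and the block. *Cxcl10* was called in each of these fits. The 8 tested ligands had a median log2 fold change of 0.23, against -0.01 for all tested genes, and an unadjusted p under 0.05 was found for 3 of them and for 2006 of the 11254 genes. WT and *Ifnar1-/-* libraries did not overlap for 4 ligands, *Cxcl10*, *Cxcl11*, and *Cxcl16* with WT above and *Cxcl14* with WT below. Among all tested genes, 23.4% did not overlap, 11.1% with WT above and 12.2% with WT below. In bulk RNA, fewer cells that express a ligand and less RNA per cell cannot be told apart.

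**Figure D2:**
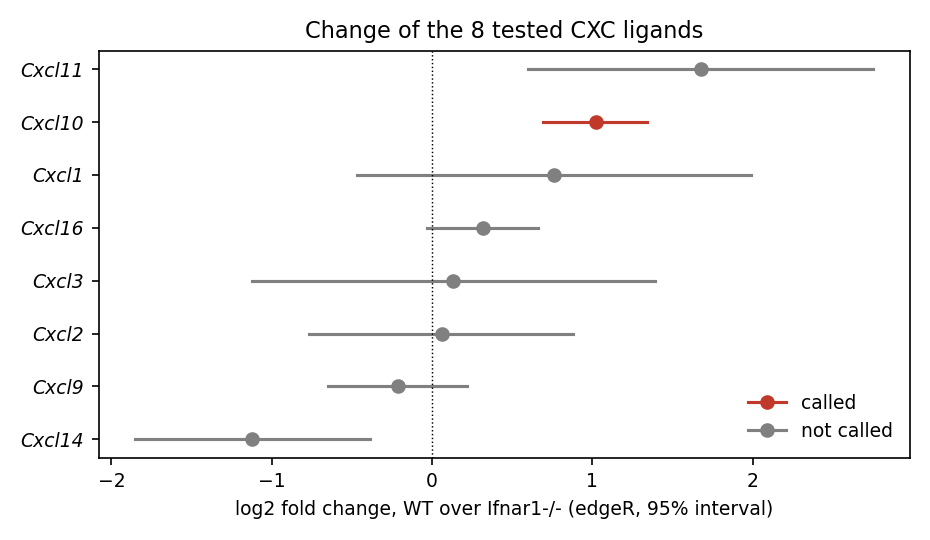
Log2 fold change (WT over *Ifnar1-/-*) of the 8 tested ligands from edgeR, with 95% confidence intervals. The interval of *Cxcl10* (0.69 to 1.34) excludes 0, the intervals of *Cxcl11* and *Cxcl14* also exclude 0 although their adjusted p did not pass, and the interval of *Cxcl2* (-0.77 to 0.88) spans 0.

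*Cxcl10* was 2.02-fold higher in WT than in *Ifnar1-/-* monocytes. The gene (ENSMUSG00000034855.13) lies on the minus strand of chromosome 5, chr5:92346638-92348889 in GRCm38, between *Cxcl9* and *Cxcl11*, and these 3 genes span 44.1 kb. Normalized CPM were 117.8, 126.7, and 102.5 in WT and 56.6, 51.7, and 63.1 in *Ifnar1-/-* libraries. Every WT library was above every *Ifnar1-/-* library, and the means were 115.7 ± 12.2 and 57.1 ± 5.71 (SD, n = 3 per group). The log2 fold change was 1.02 with an SE of 0.15 (95% interval 0.69 to 1.34, edgeR quasi-likelihood adjusted p = 0.00444). An exact two-sided permutation test gave p = 0.1, the smallest that 3 libraries against 3 allow. Within each genotype *Cxcl10* was also among the steadiest ligands, with a highest library 1.24 times the lowest in WT and 1.22 times in *Ifnar1-/-*. The antisense gene *Art3*, which overlaps *Cxcl10* and *Cxcl11* on the opposite strand, had at most 3 counts in any library.

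*Cxcl9*, its neighbor and fellow CXCR3 ligand, did not pass the test and lay in the other direction. The gene (ENSMUSG00000029417.9) spans chr5:92321347-92328079. *Cxcl9* was at 106.3, 154.1, and 150.2 normalized CPM in WT and 122.0, 182.2, and 171.8 in *Ifnar1-/-* libraries. The groups overlapped, and library 1 was the lowest in both. The log2 fold change was -0.21 with an SE of 0.20, and its 95% interval, -0.65 to 0.22, does not reach the fold change of 1.5 in favor of WT (adjusted p = 0.614 by edgeR quasi-likelihood). At its lower end the interval does not exclude a fold change of 1.5 in favor of *Ifnar1-/-*. Levels of the pair within a library were compared on the TPM scale, which accounts for gene length. *Cxcl10* was above *Cxcl9* in all 3 WT libraries, with ratios of 1.54, 1.5, and 1.03, the last close to equal levels. In all 3 *Ifnar1-/-* libraries *Cxcl9* was above *Cxcl10*, and the ratios of *Cxcl10* to *Cxcl9* were 0.575, 0.429, and 0.393. This ratio was chosen after its values were seen and was given no test.

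**Figure D3:**
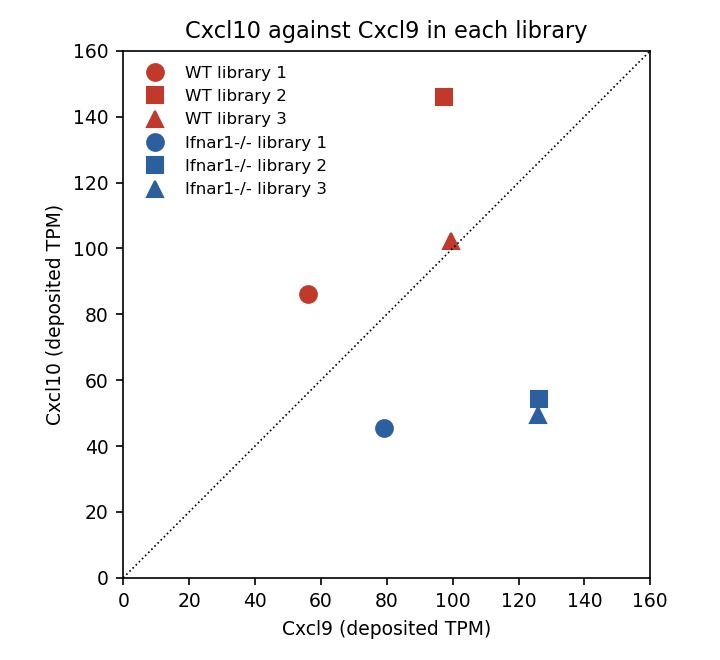
*Cxcl10* (vertical axis) against *Cxcl9* (horizontal axis) in each library, both in TPM, with WT in red, *Ifnar1-/-* in blue, marker shapes for library number, and a dotted line where the levels are equal. The 3 WT libraries lie above the line, the lowest ratio being 1.03, and the 3 *Ifnar1-/-* libraries lie below it, the highest ratio being 0.575.

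*Cxcl11* (ENSMUSG00000060183.6, chr5:92359544-92365485), the third CXCR3 ligand, was expressed at a low level. In the C57BL/6 strain the gene carries a frameshift, and the annotation lists it as a polymorphic pseudogene. It had 37, 32, and 18 counts in WT and 10, 16, and 3 in *Ifnar1-/-* libraries, or 5.27, 6.80, and 3.55 against 1.53, 2.71, and 0.552 normalized CPM. All WT libraries were above all *Ifnar1-/-* libraries, and *Ifnar1-/-* library 3 sat at the detection floor. The log2 fold change was 1.68 with an SE of 0.48 (95% interval 0.60 to 2.75), and the adjusted p of 0.118 by edgeR quasi-likelihood did not pass. With no filter on low counts the adjusted p was 0.00332, and with GC and length offsets plus the replicate block it was 0.0407. Its log2 fold change was 2.27 without *Ifnar1-/-* library 2 (adjusted p = 0.0886 by edgeR quasi-likelihood) and 1.03 with limma-trend on TPM (0.324), and it ran from 1.31 to 2.27 without single libraries.

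The promoters of *Cxcl10* and *Cxcl9* are shown because the genes are neighbors with the same receptor, and *Cxcl10* passed the test and *Cxcl9* did not. They are the 250 bases before the RefSeq start site on the minus strand in GRCm38.p6, chr5:92348890-92349139 for *Cxcl10* and chr5:92328080-92328329 for *Cxcl9*, written 5′ to 3′ with matches in capitals. The capitals mark the letters of the IFN-stimulated response element (ISRE), searched as TTTC, any 2 bases, and TTTC, and of the NF-κB site, searched as GGGA, any 2 bases, and TTCC, on both strands.
Cxcl10: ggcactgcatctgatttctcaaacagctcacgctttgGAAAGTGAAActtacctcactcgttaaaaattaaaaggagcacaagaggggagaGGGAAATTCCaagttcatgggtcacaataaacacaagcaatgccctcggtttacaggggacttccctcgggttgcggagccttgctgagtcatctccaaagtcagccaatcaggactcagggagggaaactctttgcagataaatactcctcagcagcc
Cxcl9: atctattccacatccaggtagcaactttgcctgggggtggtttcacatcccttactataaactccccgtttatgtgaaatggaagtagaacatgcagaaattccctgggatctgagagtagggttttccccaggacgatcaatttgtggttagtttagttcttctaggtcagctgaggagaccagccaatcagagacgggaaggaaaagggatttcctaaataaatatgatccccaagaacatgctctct
The *Cxcl10* promoter held an ISRE match on the opposite strand, 213 to 204 bases before the start, and an NF-κB match 159 to 150 bases before it. The *Cxcl9* window held neither string of letters. Of 32851 promoters of the same length, 2.98% held the ISRE letters and 1.21% the NF-κB letters. RefSeq windows were matched for 8 of the 10 ligands, not for *Cxcl11* and *Cxcl16*. The IFN-γ-activated site, searched as TTC, any 3 bases, and GAA, was in 7.02% of all promoters and, among the 8 ligands, in that of *Cxcl14* only, 191 to 183 bases before the start. The *Cxcl14* promoter also held an ISRE match on the opposite strand, 172 to 163 bases before the start, so among the 8 ligands the ISRE letters were in *Cxcl10* and *Cxcl14*, whose values lay in opposite directions. A match describes letters in a window and is no evidence of binding in these cells. A window without these exact letters, such as that of *Cxcl9*, may still hold a site with other letters.

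*Cxcl2*, the most abundant ELR ligand, varied more between libraries of a genotype than between the genotypes and did not pass the test. *Cxcl2* (ENSMUSG00000058427.10, chr5:90903871-90905938, plus strand) was at 342.1, 140.7, and 295.9 normalized CPM in WT and 334.3, 125.7, and 289.6 in *Ifnar1-/-* libraries. The groups overlapped almost completely, and library 2 was by far the lowest in each. The log2 fold change was 0.06 with an SE of 0.37 (95% interval -0.77 to 0.88, adjusted p = 0.961 by edgeR quasi-likelihood). In this fit without a block, the interval does not exclude a fold change of 1.5 in either direction. With a replicate block the log2 fold change was 0.07 with an SE of 0.14 (adjusted p = 0.821 by edgeR quasi-likelihood), so the width of the interval depends on the block. *Cxcl1* and *Cxcl3* lie on the same strand within 133.5 kb of chromosome 5, together with *Cxcl2* and *Pf4*. *Cxcl1* (ENSMUSG00000029380.11, chr5:90891241-90893115) had 34, 8, and 32 counts in WT and 25, 5, and 16 in *Ifnar1-/-* libraries, and library 2 was again the lowest. *Cxcl3* (ENSMUSG00000029379.10, chr5:90786103-90789600) was at 28.2, 10.2, and 6.32 normalized CPM in WT and 25.8, 8.13, and 7.36 in *Ifnar1-/-* libraries. For *Cxcl3*, library 1 was the highest in each group and the other libraries were lower. The log2 fold changes of *Cxcl1* (0.76, SE 0.55, adjusted p = 0.513 by edgeR quasi-likelihood) and *Cxcl3* (0.13, SE 0.56, adjusted p = 0.935) did not pass. Leaving out single libraries moved the log2 fold change of *Cxcl2* between -0.25 and 0.37 and that of *Cxcl3* between -0.75 and 0.99. Expected counts of *Cxcl2* and *Cxcl3* were not whole in any of the 6 libraries, which may mean that reads were divided among similar genes. The genes that shared such reads were not identified, so the split between *Cxcl2* and *Cxcl3* may be uncertain.

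The promoters of these 3 genes are shown for the stretch they share. They are the 120 bases before the RefSeq start site on the plus strand in GRCm38.p6, chr5:90891125-90891244 for *Cxcl1*, chr5:90903779-90903898 for *Cxcl2*, and chr5:90785981-90786100 for *Cxcl3*, with the NF-κB letters in capitals.
Cxcl1: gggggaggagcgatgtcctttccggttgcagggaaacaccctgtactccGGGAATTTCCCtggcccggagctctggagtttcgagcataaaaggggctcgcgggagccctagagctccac
Cxcl2: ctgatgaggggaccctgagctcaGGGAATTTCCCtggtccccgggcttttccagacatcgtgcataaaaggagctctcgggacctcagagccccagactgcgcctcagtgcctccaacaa
Cxcl3: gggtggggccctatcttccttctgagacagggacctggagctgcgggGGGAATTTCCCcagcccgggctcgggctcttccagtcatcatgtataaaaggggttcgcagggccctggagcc
All 3 held the same run of capitals, in which the NF-κB letters match on both strands with an overlap, first 71 to 62 bases before the start in *Cxcl1*, 97 to 88 in *Cxcl2*, and 73 to 64 in *Cxcl3*. None of the 3 held the ISRE letters in the 250 bases before the start. The gene spans given above for *Cxcl1* and *Cxcl2* begin inside these windows, before the RefSeq start sites, so distances depend on the annotation.

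*Cxcl16* was expressed strongly and evenly in WT monocytes. *Cxcl16* (ENSMUSG00000018920.11, chr11:70453983-70459984, minus strand) was at 315.7, 328.4, and 311.7 normalized CPM in WT and 213.2, 286.4, and 268.3 in *Ifnar1-/-* libraries. All WT libraries were above all *Ifnar1-/-* libraries, which were spread more widely. The log2 fold change was 0.32 with an SE of 0.15 (95% interval -0.03 to 0.66, adjusted p = 0.311 by edgeR quasi-likelihood) and did not pass. *Zmynd15*, which overlaps *Cxcl16*, had 100, 68, and 52 counts in WT and 36, 48, and 51 in *Ifnar1-/-* libraries.

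*Cxcl14*, a ligand made by many tissues, was the ligand whose values were lower in every WT library. *Cxcl14* (ENSMUSG00000021508.11, chr13:56288643-56296551, minus strand) had 35, 19, and 13 counts in WT and 68, 56, and 31 in *Ifnar1-/-* libraries. On the scale of normalized CPM the means were 3.86 ± 1.22 and 8.53 ± 2.49 (SD, n = 3 per group), and the groups did not overlap. The log2 fold change was -1.12 with an SE of 0.33 (95% interval -1.85 to -0.39), and the adjusted p of 0.121 by edgeR quasi-likelihood did not pass. With no filter on low counts it was 0.0115, and with GC and length offsets plus the replicate block 0.0245. *Pf4* (ENSMUSG00000029373.7) had 3, 1, and 2 counts in WT and 4, 2, and 4 in *Ifnar1-/-* libraries, at or near the floor, and *Cxcl13* (ENSMUSG00000023078.6) had none. A count of 0 allows up to 3 counts, so low expression of *Cxcl13* was not detectable at this depth.

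Each tested ligand was set beside the protein-coding genes whose pattern over the 6 libraries was most like its own. The measure was the root-mean-square difference of centered log2 CPM over 7631 genes with a mean of at least 50 counts. For *Cxcl10* the closest were *Parp11* (difference 0.0798), *Pnp* (0.0937), and *Setdb2* (0.1). Their log2 fold changes were 1.14, 0.93, and 1.09, a direction that the choice by likeness to *Cxcl10* fixes. For *Cxcl2* the closest were *Nr4a1* (0.161), *Dusp1* (0.186), and *Thbd* (0.202), of which *Nr4a1* and *Dusp1* are immediate early genes, and none of the 3 passed the test. For *Cxcl1* they were *Dusp2* (0.196), *Fosb* (0.229), and *Ccl3* (0.251), which like *Cxcl1* were lowest in library 2 of each group. The nearest genes were *Mmp8* for *Cxcl9* (0.0431) and *Pik3r6* for *Cxcl16* (0.0377). For *Cxcl11* the nearest were *Klrk1* (0.357), *Slfn8* (0.389), and *Herc6* (0.394), further away than the neighbors of *Cxcl10*. For *Cxcl3* the nearest was *Chst11* (0.357). For *Cxcl14* the nearest were *Nt5e* (0.200), *Fam136a* (0.211), and *Mrc1* (0.237), a macrophage gene. *Mrc1* was at 34.9, 26.4, and 21.7 normalized CPM in WT and 51.3, 48.8, and 43.6 in *Ifnar1-/-* libraries, without overlap (log2 fold change -0.79, adjusted p = 0.061 by edgeR quasi-likelihood), and the part of macrophage RNA in the *Cxcl14* values was not tested. A small difference says only that the patterns lie close over 6 libraries.

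**Figure D4:**
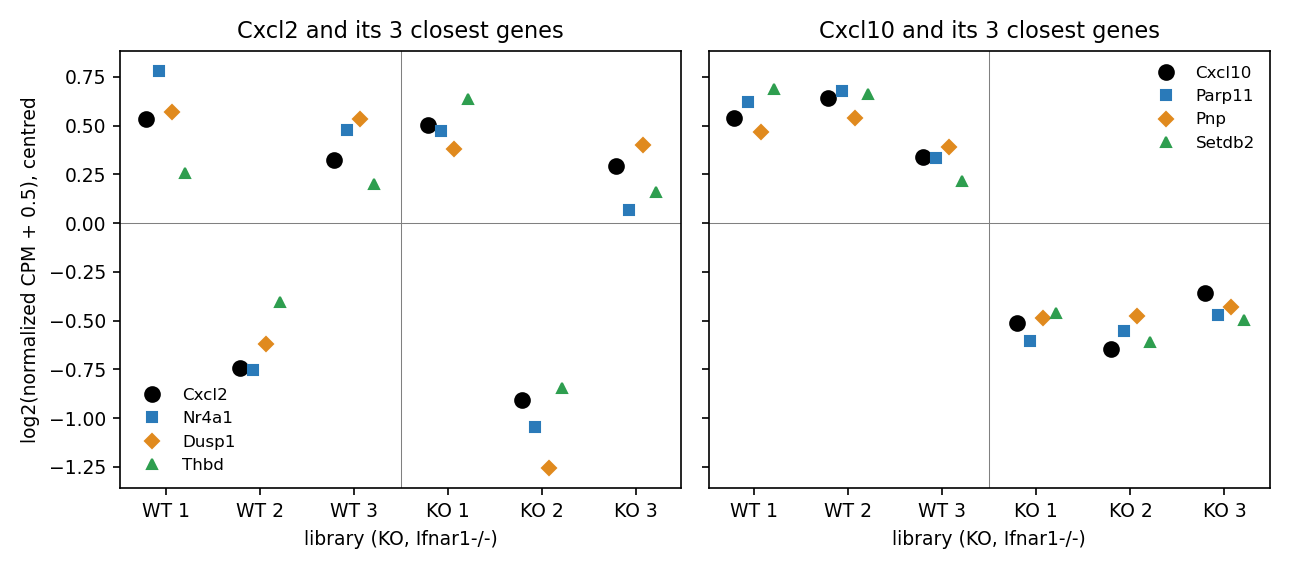
Centered log2 level (log2 of normalized CPM plus 0.5, less the mean of the 6 libraries) of *Cxcl2* and of *Cxcl10*, each with its 3 closest genes. *Cxcl10*, *Parp11*, *Pnp*, and *Setdb2* are higher in all 3 WT libraries, whereas *Cxcl2*, *Nr4a1*, *Dusp1*, and *Thbd* are lowest in library 2 of each genotype.

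Around the ligands, 7 lists of genes were counted in the same fit: other CXC ligands, their receptors, ligand-processing enzymes, interferon signaling, NF-κB, mRNA decay, and inflammatory genes. None of 5 further CXC ligands was tested, since *Cxcl15* and *Cxcl17* were at 0 and the others had at most 4 counts. Of 8 receptors, 4 were tested and 0 passed. *Cxcr4*, the most abundant, had a log2 fold change of 0.16 (adjusted p = 0.696 by edgeR quasi-likelihood), and *Cxcr2*, the receptor of the ELR ligands, -0.40 (0.638). Named after their values were seen, *Cxcr3* had 14, 9, and 13 counts in WT and 5, 2, and 4 in *Ifnar1-/-* libraries (log2 fold change 1.77, SE 0.49, adjusted p = 0.105 by edgeR quasi-likelihood), and *Cxcr6* had 1.51 (SE 0.43, 0.113). *Cxcr6* was called with no filter on low counts (adjusted p = 0.0136) and with GC and length offsets plus the replicate block (0.0426), both by edgeR quasi-likelihood. Of 6 ligand-processing enzymes 0 passed, among them *Adam10*, a protease that releases CXCL16 (log2 fold change -0.31, adjusted p = 0.347 by edgeR quasi-likelihood), and *Mmp8* (-0.24, 0.533). Named after its values were seen, *Dpp4*, whose product trims CXCR3 ligands, was at 8.68, 10.2, and 7.11 normalized CPM in WT and 5.04, 4.07, and 3.31 in *Ifnar1-/-* libraries, without overlap (log2 fold change 1.05, SE 0.27, adjusted p = 0.0842 by edgeR quasi-likelihood). *Dpp4* was called with no filter on low counts (adjusted p = 0.021) and with GC and length offsets plus the replicate block (0.0407), both by edgeR quasi-likelihood.

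Of 11 interferon signaling genes, 1 passed, *Stat2*, which encodes a subunit of the factor that binds the ISRE. *Stat2* was at 189.4, 123.1, and 139.0 normalized CPM in WT and 30.9, 44.1, and 35.3 in *Ifnar1-/-* libraries (log2 fold change 2.04, SE 0.20, adjusted p = 0.000347 by edgeR quasi-likelihood). *Irf1*, a gene induced by IFN-γ, had a log2 fold change of 0.01 (adjusted p = 0.989 by edgeR quasi-likelihood). Of 12 NF-κB genes, 0 passed, 11 of them had log2 fold changes above 0, and the median was 0.24, against -0.01 for all tested genes. Of 6 mRNA decay genes, whose products include proteins that degrade chemokine mRNA, 0 passed and the median was 0.39. Named after their values were seen, *Bcl3* of the NF-κB list and *Zfp36l2* and *Zfp36* of the mRNA decay list were called with no filter on low counts. Their adjusted p there were 0.00147, 0.00885, and 0.0148 by edgeR quasi-likelihood. *Bcl3* and *Zfp36l2* were also called with DESeq2 (adjusted p = 0.0344 and 0.0434). Of 10 inflammatory genes, 8 were tested and 0 passed, with a median of -0.07, among them *Il1b* (log2 fold change -0.38, adjusted p = 0.463 by edgeR quasi-likelihood) and *Nos2* (0.47, 0.576). Of these 8, 4 had log2 fold changes above 0 and 4 below. *Ccl3* (log2 fold change 0.75, adjusted p = 0.369 by edgeR quasi-likelihood) and *Ccl4* (0.79, 0.176) were named after their values were seen. Both were called with no filter on low counts (adjusted p = 0.0259 and 0.0348 by edgeR quasi-likelihood). With GC and length offsets plus the replicate block both were also called (0.0437 and 0.0165 by the same test).

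**Figure D5:**
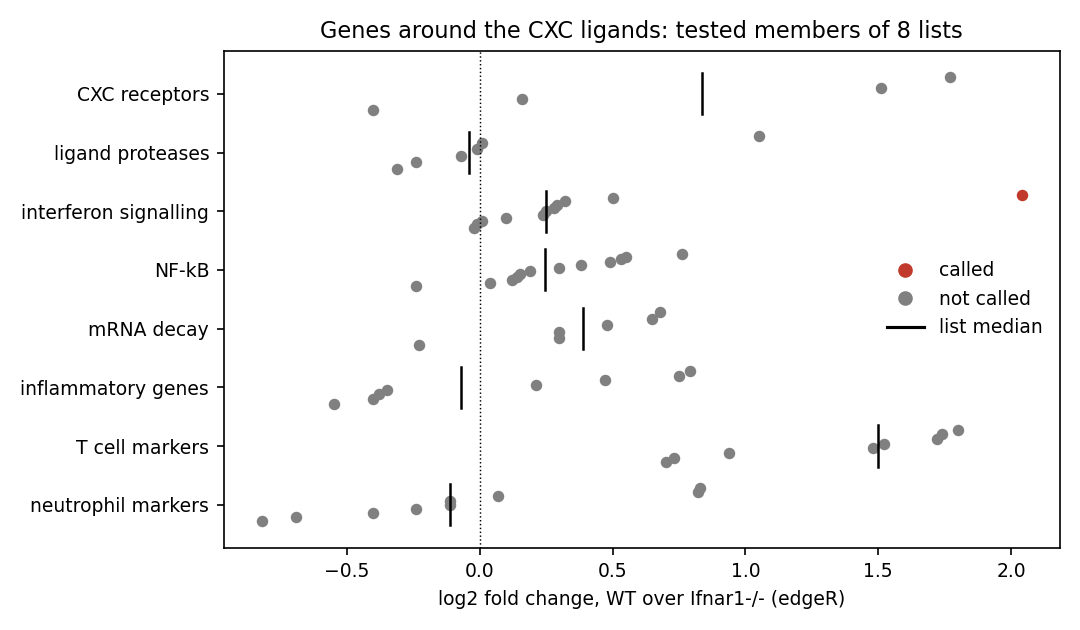
Log2 fold change (WT over *Ifnar1-/-*, edgeR) of the tested genes in 8 lists around the CXC ligands, with called genes in red and list medians as bars. *Stat2* at 2.04 is the only called gene among the lists drawn, and all 8 tested T cell markers lie above 0.

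Markers of other cells were counted in the same libraries. The 10 T cell markers summed to 51.9, 22.1, and 50.7 normalized CPM in WT and 24.4, 8.47, and 15.1 in *Ifnar1-/-* libraries, with *Cd3g* the most abundant by mean TPM, and the groups overlapped; 8 were tested, 0 passed, and all 8 had log2 fold changes above 0 with a median of 1.5. *Cxcr3* and *Cxcr6*, which T cells also express, lay in the same direction, and the part of T cell RNA in the ligand values was not tested. The 10 neutrophil markers summed to 465, 845, and 2288 normalized CPM in WT and 1020, 919, and 2519 in *Ifnar1-/-* libraries, of which *S100a9* was the most abundant by mean TPM, and library 3 held the most in both groups. Of the 9 neutrophil markers tested 0 passed. Of the sort markers, *Ly6c2* was higher in WT (725.8, 788.3, and 639.7 against 176.8, 300.3, and 337.1 normalized CPM; log2 fold change 1.40, adjusted p = 0.00957 by edgeR quasi-likelihood), and it shares reads with a close paralog. *Ccr2* lay the other way without overlap, at 648.3, 693.7, and 586.8 normalized CPM in WT and 1269, 794.0, and 905.0 in *Ifnar1-/-* libraries, and did not pass (log2 fold change -0.62, adjusted p = 0.143 by edgeR quasi-likelihood). Of the endothelial markers, 2 of 4 were tested and *Kdr* passed (log2 fold change 3.09, adjusted p = 0.0143 by edgeR quasi-likelihood). *Kdr* was at 20.9, 7.01, and 6.12 normalized CPM in WT and 1.22, 1.86, and 0.92 in *Ifnar1-/-* libraries, without overlap. Platelet genes *Gp9*, *Gp1ba*, and *Gp5* were at 0, and with 2 of 10 platelet markers tested, 0 passed. The border macrophage (2 of 6 tested), dendritic cell (2 of 9), microglia (4 of 6), and astrocyte (3 of 4) lists had 0 called genes, and no gene of the B cell and fibroblast lists was tested. Among defining markers, *Pdgfra* and *Lyve1* were at 0. In the border macrophage list, *Cd163*, *Cbr2*, and *Folr2* also had at most 4 counts, whereas *Stab1*, the most abundant, had 812 to 1708 counts and *Mrc1* 110 to 336. The 6 border macrophage markers summed to between 199.6 and 278.3 normalized CPM in WT and between 228.1 and 230.1 in *Ifnar1-/-* libraries, and the groups overlapped.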

How the data were processed

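RNA-seq of CNS monocytes was analyzed from 6 deposited gene-level files, grouped by the deposited labels. The authors mapped reads with STAR 2.6.0c to GRCm38 and used RSEM 1.2.31, per the labels. The deposited expected counts are estimated reads per gene, not normalized. TPM, as deposited, corrects for gene length and has an equal sum in every library, and the deposited FPKM values, scaled by gene length and depth, were not used. Kit names differ between the labels and the methods, and the strand setting of the counting is not given in the sources used here.

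Expected counts were rounded and tested in R 4.3.3 with edgeR 4.0.16 (TMM, filterByExpr with a minimum count of 10, quasi-likelihood test with Benjamini-Hochberg adjustment over 11254 genes, no replicate block). Gene names came from GENCODE M21, matched for 54165 of 54232 identifiers. Normalized CPM carry a pseudocount of 0.5 on log2 scales. Promoters came from RefSeq. Named genes were the 10 ligands, called genes of each list up to 4 or, with fewer than 2, the 2 with the highest mean TPM, and the 3 nearest patterns. The members and lists were chosen with earlier results of these data known. Alternatives were DESeq2 1.42.0, RLE, limma-voom and limma-trend (limma 3.58.1), other filters, a replicate block, GC and length offsets, and leaving out each library. The tests were checked on simulated counts. Results for some single genes are left out of the text.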

Additional observations from a re-analysis of the deposited data

How the results depend on the processing

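*Cxcl10* was called under all settings tried, with log2 fold changes of 0.96 to 1.14 and adjusted p of 4.11e-07 to 0.0436. Without single libraries its log2 fold change ran from 0.96 to 1.12, and without WT library 1, which had the high share of *Rn7s2*, it was 1.01. The number of differentially expressed genes was 240 and moved to 872 with no filter on low counts, 419 with DESeq2, and 125 with limma-trend on TPM, and ran from 119 to 245 without single libraries (110 to 204 higher and 7 to 41 lower in WT). With limma-trend on TPM 111 were higher and 14 lower, and with no filter 610 and 262. The number of CXC ligands called was 1 and moved to 3 with no filter and with GC and length offsets plus the replicate block, where *Cxcl11* and *Cxcl14* were added. The number of related-list genes called was 1 and moved to 8 with no filter, 3 with DESeq2 (*Stat2*, *Bcl3*, and *Zfp36l2*), and 5 with GC and length offsets plus the replicate block, and ran from 1 to 2 without single libraries. Log2 fold changes without single libraries ran from -0.25 to 0.37 for *Cxcl2* and from -0.75 to 0.99 for *Cxcl3*, changing sign. Same-numbered libraries deviated together by correlations of 0.0906, 0.0278, and 0.275. Between WT and *Ifnar1-/-* libraries of different numbers the correlations ran lower, from -0.196 to 0.092. These values did not establish pairs and did not exclude them. With a replicate block 220 genes were called, *Cxcl10* had an adjusted p of 0.016 by edgeR quasi-likelihood, and the SE of *Cxcl2* was 0.14 instead of 0.37. Requiring at least 10 counts in every library left out *Cxcl1* and *Cxcl11*. The causes were not tested. With 3 libraries per group, and at most 68 counts for *Cxcl1*, *Cxcl11*, and *Cxcl14*, these genes rest on few reads.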

Other observations

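The ratio of *Cxcl2* to *Cxcl3*, similar ELR ligands, was highest in library 3 of both genotypes. On the TPM scale it was 11.5, 9.75, and 43.9 in WT and 13.3, 11.0, and 46.8 in *Ifnar1-/-* libraries 1, 2, and 3. The summed level of the neutrophil markers was also highest in library 3 of both groups, and its part in the ratio was not tested. The ratio was chosen after its values were seen, and expected counts of *Cxcl2* and *Cxcl3* were not whole in any library. *Spp1*, the gene of osteopontin, was among the closest patterns to *Cxcl3*, at 472.4, 124.5, and 103.6 normalized CPM in WT and 769.8, 184.7, and 145.6 in *Ifnar1-/-* libraries, with library 1 highest in both groups.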
